A study of Mus musculus with 3 samples.

Results

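Natural killer (NK) cells were described in a single-cell RNA sequencing study of mouse spleen. They were 1266 of the 47453 barcodes that passed the limits on genes, mitochondrial RNA and hashtags. The barcodes were chosen by measured values: 3 or more unique molecular identifiers (UMIs, counts of single captured RNA molecules) summed over the NK genes Ncr1, Klrb1c, Klre1, Gzma, Prf1 and Eomes, and none of Cd3d, Cd3e, Cd3g, Cd79a, Lyz2 or S100a8, which mark T cells, B cells and myeloid cells. The levels of these 12 genes are therefore given only as a description.

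The spleens came from mice 12 to 14 weeks old, T cells had been depleted with CD3 microbeads in every group, and each condition pooled cells of 3 mice. The control library held sham-treated male and untreated female C57BL/6 mice. Pumps for 2 weeks from 10 weeks of age are recorded for this library as well. The Ang II library held C57BL/6 mice, male per the series design, that carried minipumps for 2 weeks from 10 weeks of age. The labels give the angiotensin II (Ang II) rate as 490 µg/kg/min, a unit that is in doubt since such pumps are usually dosed in ng/kg/min, and the mice received placebo or 2-hydroxybenzylamine (2-HOBA), a scavenger of isolevuglandins. The B6.SLE123 library held mice of this lupus-prone strain, female per the study's methods, with placebo or 2-HOBA for 6 weeks from 7 weeks of age. The strain is a C57BL/6 line that carries the Sle1, Sle2 and Sle3 intervals on chromosomes 1, 4 and 7. Each library thus mixed 2 conditions. Its 6 hashtags (C0301 to C0306, antibody tags counted beside the RNA) were not named for a condition, so neither 2-HOBA nor sex was compared. The labels tie no hashtag to a single mouse. No test was possible, since every group is 1 library, and strain, treatment, sex and library cannot be told apart. Every interval printed is a 95% interval that covers counting error only, and the 6 hashtag populations are shown as the spread within a library.

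NK cells are innate lymphocytes that kill infected or transformed cells with perforin and granzymes. Their response is set by the balance of activating and inhibitory receptors, many of them lectin-like proteins of the Klr and Klra (Ly49) families. In the mouse, maturing NK cells lose CD27, gain CD11b (Itgam) and finally gain KLRG1. Early cells are rich in the chemokine Xcl1, and late cells in granzyme B and in receptors for leaving the marrow and entering blood.

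The labelled identity was checked with genes that the rule did not use. A UMI of Nkg7, a cytotoxic granule protein, was found in 98.4%, 97.6% and 97.5% of NK cells in the order control, Ang II, B6.SLE123, and in 0.349%, 0.512% and 0.351% of B cells. Ccl5, a chemokine of cytotoxic lymphocytes, was found in 99.0%, 98.3% and 98.3% of NK cells. Klrk1, the activating receptor NKG2D, was found in 70.2%, 87.5% and 65.5%. The signalling adaptors Tyrobp and Fcer1g each had a UMI in over 90.0% of the NK cells of every library. Tyrobp was also found in 14.8%, 17.7% and 10.9% of B cells. T cell genes were mixed. Cd8b1 had no UMI in any library, Cd8a and Cd4 had at most 1 UMI each, and Trac had 4, 2 and 1 UMIs. The T cell receptor beta constant genes were found more widely, Trbc1 in 19.5%, 26.4% and 9.36% of NK cells and Trbc2 in 20.9%, 22.2% and 13.1%. Cd200r1, Cxcr6 and Itga1, which mark type 1 innate lymphoid cells, had a UMI in at most 1.41% of the cells of any library. Il7r, of the same list, was found in 2.62%, 4.51% and 2.49%. Over its 6 genes the list reached 202 CPM (a gene's UMIs scaled to 1e6 NK UMIs) in Ang II hashtag C0301 and 206 CPM in B6.SLE123 hashtag C0303. T cells, with 3 or more UMIs over Cd3d, Cd3e and Cd3g and none of Cd79a, Lyz2 or S100a8, numbered 16, 216 and 21. Scaled to T cell UMIs, their Ccl5 stood at 10128, 1790 and 8406 CPM, against 24249, 17482 and 23429 CPM in NK cells. Nkg7 stood at 1950, 504 and 1450 against 5361, 3896 and 4799 CPM. These 2 genes were thus shared with T cells, for which NK genes were not limited. Of the rule's own genes, Gzma was found in 96.0%, 95.8% and 96.5% of NK cells and Ncr1 (NKp46) in 79.5%, 89.6% and 87.3%. Eomes, the transcription factor of conventional NK cells, was found in 39.8%, 61.5% and 29.9%. NK cells of B6.SLE123 also had the fewest UMIs, and what part depth had in these shares was not tested.

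Few barcodes sat at the edge of the rule. Among barcodes with none of the 6 excluded genes, 3, 4 and 4 had 2 marker UMIs and were left out, while 5, 2 and 6 had 3 and were kept. The median NK cell held 38, 42 and 23 marker UMIs. The limit on the 6 excluded genes mattered more. It removed 150 of 647 barcodes in the control library (23.2%), 166 of 454 in Ang II (36.6%) and 261 of 742 in B6.SLE123 (35.2%). Among these barcodes with 3 or more marker UMIs, S100a8, a neutrophil gene, was found in 2.63%, 17.2% and 10.5%. In barcodes with 3 or more UMIs of B cell genes its share was much the same, at 3.62%, 18.8% and 9.66%. The B cell gene Cd79a was found in 16.1%, 13.7% and 22.4% of the NK-marker barcodes.

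Depth differed between the libraries. NK cells had a median of 1711 UMIs and 944 genes in the control library, 2421.5 UMIs and 1260 genes in Ang II, and 1314 UMIs and 799 genes in B6.SLE123. NK UMIs summed to 943653, 772114 and 694919. Mitochondrial RNA made up a median of 1.04%, 1.03% and 0.878%. Of all NK cells, 1 barcode sequence occurred in both the control and the B6.SLE123 library. Other cells' RNA was low but uneven. Over 9 B cell genes the summed level was 401, 517 and 1069 CPM, with 46.0% of the B6.SLE123 UMIs in a single barcode of hashtag C0303. Over 8 myeloid genes it was 456, 528 and 566 CPM, over 9 T cell genes 389, 379 and 275 CPM, over 3 plasma cell genes 43.4, 81.6 and 164 CPM, and over 6 erythroid and platelet genes 0, 6.48 and 904 CPM, the last with 98.4% in a single barcode of hashtag C0304.

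NK cells made up 3.11% of the kept barcodes of the control library (2.85 to 3.40), 2.06% of the Ang II library (1.83 to 2.31) and 2.75% of the B6.SLE123 library (2.51 to 3.00). By hashtag, the control shares ran from 2.38% to 3.93% with a median of 3.12%. The Ang II shares ran from 1.72% to 2.63% with a median of 2.00%. Those of B6.SLE123 ran from 1.27% (C0303) to 3.41% with a median of 2.96%. The hashtag ranges overlapped in both comparisons with control. The log2 ratio of shares was -0.60 for Ang II (-0.81 to -0.38) and -0.18 for B6.SLE123 (-0.36 to 0.00225). These ratios depended on the excluded genes. Without S100a8 and Lyz2 in the rule the shares were 3.27%, 2.57% and 3.17%, and the Ang II ratio was -0.34. With no excluded gene they were 4.05%, 3.25% and 4.24%, and the B6.SLE123 ratio was above 0, at 0.06. A share is relative to the other cells kept, so fewer NK cells and more of other cells cannot be told apart.

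**Figure D1:**
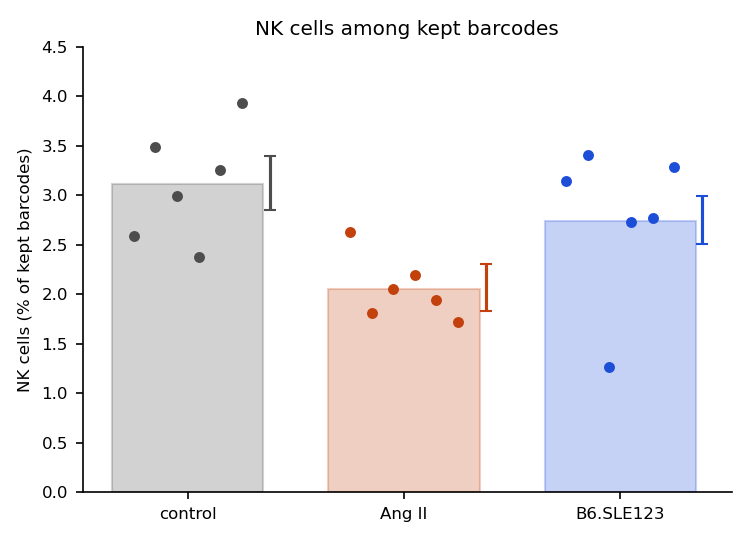
NK cells as a percent of kept barcodes (vertical axis) in the 3 libraries (horizontal axis). Bars are library shares, error bars their exact 95% intervals, and dots the 6 hashtag populations, which span 2.38% to 3.93% in control, 1.72% to 2.63% in Ang II and 1.27% to 3.41% in B6.SLE123.

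The maturation markers were counted after each cell had been thinned to 1000 UMIs, since a UMI is more easily found in deeper cells. The 40, 11 and 126 NK cells with fewer UMIs were left out. Itgam did not separate the libraries, with a UMI in 23.2% of control (19.4 to 27.3), 22.02% of Ang II (17.3 to 27.4) and 22.8% of B6.SLE123 NK cells (18.6 to 27.5). Klrg1, an inhibitory receptor of late NK cells, was found in 21.2% (17.6 to 25.3) in control, 9.39% (6.22 to 13.5) in Ang II and 19.7% (15.7 to 24.2) in B6.SLE123. The share in Ang II was thus the lowest. Cd27 was rare, at 5.03% (3.22 to 7.46), 7.58% (4.75 to 11.4) and 2.25% (0.978 to 4.39), lowest in B6.SLE123. In B cells the same genes were found in at most 0.439% of cells.

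By hashtag, the Klrg1 share ran from 11.5% through a median of 19.97% to 34.7% in control and from 1.82% through 9.94% to 16.7% in Ang II. The ranges overlapped, and the highest control value was that of C0305. The log2 ratio of Klrg1 shares in Ang II was -1.18 (-1.86 to -0.54), and -0.67 without control hashtag C0305. Without thinning the shares were 31.0% and 22.2%, with a log2 ratio of -0.48. At 1500 UMIs per cell they were 29.2% and 14.8%. The Cd27 share ran from 0% to 8.16% in control and from 0% to 4.23% in B6.SLE123, again with overlap. Its log2 ratio in B6.SLE123 was -1.16, with an interval from -2.53 to 0.05. For Klrg1 in B6.SLE123 the interval ran from -0.57 to 0.35, and without control hashtag C0305 the ratio was 0.40.

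**Figure D2:**
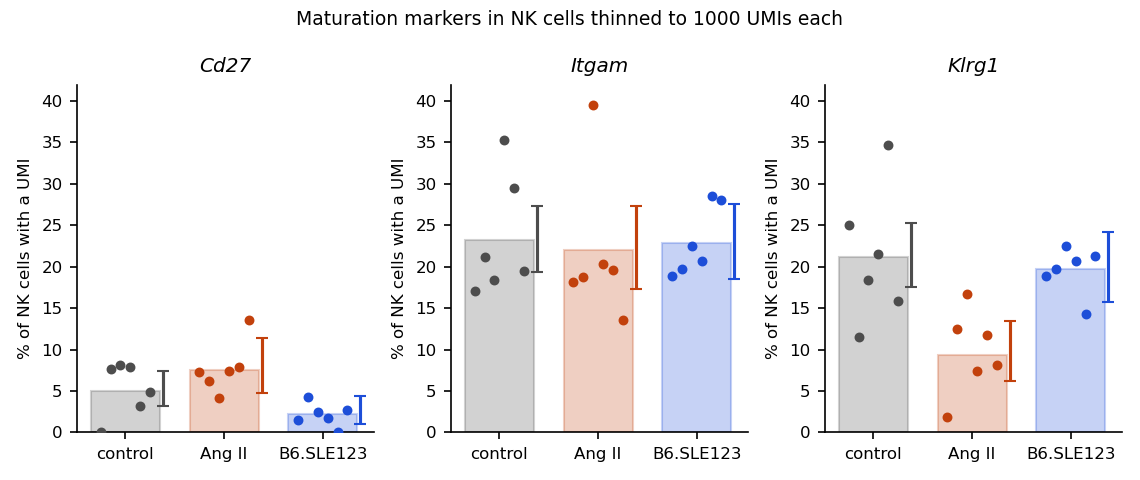
Percent of NK cells with a UMI of Cd27, Itgam or Klrg1 after thinning to 1000 UMIs (vertical axes) in the 3 libraries (horizontal axes). Bars are library shares, error bars exact 95% intervals and dots the 6 hashtags; Klrg1 stood at 9.39% in Ang II and at 21.2% and 19.7% in control and B6.SLE123.

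Without thinning, the markers were set against each other in single cells. Of the 497 control cells, 33 held Cd27 only, 15 held Cd27 and Itgam, 165 held Itgam only and 284 held neither. In Ang II the same classes held 30, 19, 117 and 122 cells, and in B6.SLE123 12, 3, 131 and 335. Klrg1 was found in 44.2% of the control cells with Itgam only (36.5 to 52.2) and in 12.1% of those with Cd27 only (3.40 to 28.2). In Ang II these shares were 29.9% and 3.33%, and in B6.SLE123 38.2% and 0 of 12 cells, with an exact interval that reaches 26.5%. Klrg1 was thus more often found with Itgam only than with Cd27 only in each library, though cells with Cd27 only were few. Cells with neither gene held Klrg1 in 25.7%, 18.9% and 25.1%, and cells with both in 26.7%, 26.3% and 0 of 3. After thinning to 1000 UMIs, the shares with Itgam only were 26.5%, 17.2% and 22.5%. With neither gene they were then 20.8%, 7.58% and 19.5%. Cells with Cd27 only were deeper than those with Itgam only in control and Ang II, with medians of 2362 and 3528.5 against 1753 and 2335 UMIs. In B6.SLE123 the medians were near equal, at 1431.5 and 1422 UMIs. Cells with both genes were the deepest in each library, at 2377, 3784 and 1626 UMIs.

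NK cells were then split within each library by a UMI of Klrg1, which compares cells of the same library but not of the same hashtag. Without thinning, Klrg1 was found in 64.9% of the NK cells of control hashtag C0305, against 16.7% to 33.9% in the other control hashtags. The hashtag shares ran from 8.77% to 41.2% in Ang II and from 19.0% to 33.3% in B6.SLE123. What part hashtag C0305 had in the control differences of this split was not tested. There were 154 cells with Klrg1 and 343 without in control, 64 and 224 in Ang II, and 134 and 347 in B6.SLE123. Their depth was near equal, with medians of 1840 against 1650, 2500.5 against 2385.5, and 1385.5 against 1273 UMIs. Of 2143 genes tested, 11 were lower by 0.5 or more on the log2 scale in cells with Klrg1 in all 3 libraries (0.513%), and 4 were higher (0.187%). Cells were chosen by Klrg1 from the same counts, so these differences are a description of the split. The 11 lower genes were Ltb, Cd160, Xcl1, Bola2, Ctla2a, Cd7, Rinl, Srpk1, Bcl7c, Tnrc6c and Rapgef6, and the 4 higher ones S100a6, Cma1, Gzmb and Psmd2.

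Xcl1, the chemokine that draws cross-presenting dendritic cells, stood at 46.8 CPM in control cells with Klrg1 and 303.2 CPM in those without. In Ang II it stood at 114 against 384 CPM and in B6.SLE123 at 80.3 against 267 CPM. The log2 differences were -2.69, -1.75 and -1.73. Ltb, the lymphotoxin beta subunit, differed by -3.24, -2.11 and -1.35, and Cd160, a receptor for herpesvirus entry mediator, by -2.85, -2.25 and -1.13. Cd7, a surface protein of lymphocytes, differed by -1.27, -0.96 and -1.0, and Ctla2a, a cysteine protease inhibitor, by -1.39, -0.83 and -1.10. These 5 genes were lower with intervals below 0 in each library. On the other side, Gzmb, the granzyme that starts caspase-driven death in target cells, stood at 887 against 414 CPM, 695 against 434 CPM and 770 against 484 CPM. Its log2 differences were 1.10, 0.68 and 0.67. The chymase Cma1 differed by 1.20, 0.91 and 0.69 and the calcium-binding protein S100a6 by 1.34, 0.84 and 0.64.

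**Figure D3:**
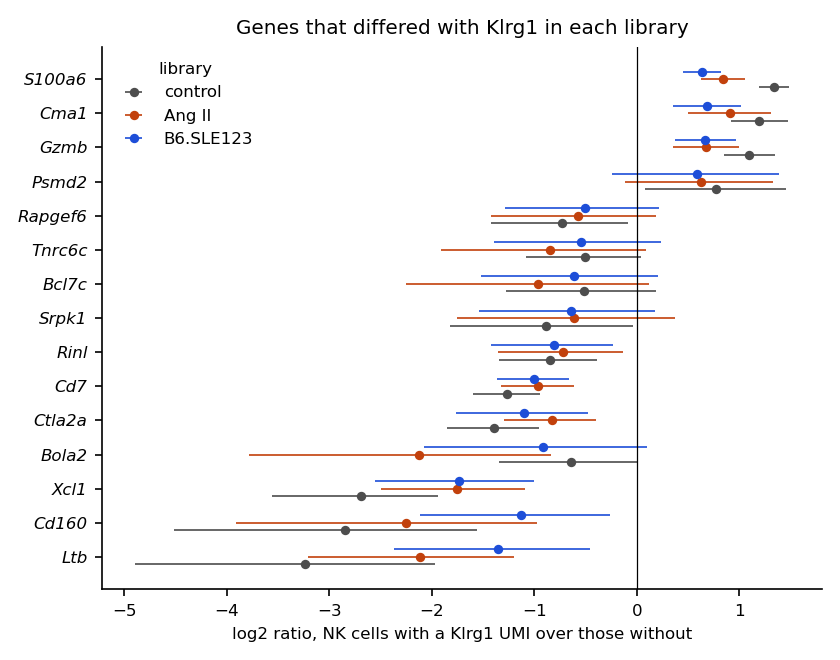
Log2 ratio of CPM in NK cells with a Klrg1 UMI over those without (horizontal axis) for the 15 genes past 0.5 in the same direction in the 3 libraries (vertical axis). Points are libraries and lines exact 95% intervals; Ltb, Cd160 and Xcl1 lie farthest to the left and S100a6, Cma1 and Gzmb farthest to the right.

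In a split by Itgam the lower genes were also among those lower with Klrg1, while the higher genes were not the same. In all 3 libraries 4 genes were lower by 0.5 or more in cells with Itgam (0.187%), namely Xcl1, Ltb, Cd7 and Cd160, and 3 were higher (0.14%), namely Klrg1, the transcription factor Irf8 and the kinase Tnik. Klrg1 was higher in cells with Itgam by 0.81 in control, 1.25 in Ang II and 0.53 in B6.SLE123 on the log2 scale. Control hashtag C0305 had the highest control share of Itgam as well, at 54.6% of its NK cells without thinning, and its part here was not tested. S1pr5, the sphingosine-1-phosphate receptor by which NK cells leave the marrow, was higher by 0.66, 0.60 and 0.38.

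The promoters of genes on either side of the split are shown because the T-box factors Eomes and T-bet shape NK maturation. The sequences are RefSeq's for GRCm38.p6, 250 bases before the annotated start, and read 5′ to 3′ on the gene's strand. The T-box core GGTGTGA was searched on both strands (reverse complement TCACACC), and capitals mark a match.
Xcl1, chr1:164935523-164935772, minus strand: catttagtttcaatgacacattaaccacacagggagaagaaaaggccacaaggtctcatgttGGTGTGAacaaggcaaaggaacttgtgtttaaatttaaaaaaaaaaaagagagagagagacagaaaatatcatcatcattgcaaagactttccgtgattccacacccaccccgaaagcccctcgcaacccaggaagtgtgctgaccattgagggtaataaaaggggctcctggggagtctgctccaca
Cd160 (second annotated start), chr3:96814522-96814771, minus strand: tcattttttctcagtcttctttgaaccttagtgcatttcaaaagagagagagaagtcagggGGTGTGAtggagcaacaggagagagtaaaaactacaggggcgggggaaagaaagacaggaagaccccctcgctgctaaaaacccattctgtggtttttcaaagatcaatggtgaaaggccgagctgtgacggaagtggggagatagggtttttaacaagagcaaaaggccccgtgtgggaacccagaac
Gzmb, chr14:56262335-56262584, minus strand: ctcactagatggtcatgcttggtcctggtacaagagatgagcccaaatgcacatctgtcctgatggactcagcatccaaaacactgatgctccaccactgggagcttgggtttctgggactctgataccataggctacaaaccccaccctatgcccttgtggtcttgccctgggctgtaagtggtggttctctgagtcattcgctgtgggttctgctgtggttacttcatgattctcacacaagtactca
Xcl1 held a match 188 bases before its start and Cd160 one 189 bases before its second start. The first annotated start of Cd160, not printed, held none. Gzmb held none in this window. Of the 11 genes lower with Klrg1, 10 were in the promoter table and 2 held a match, and of the 4 higher genes none did. Among all 32851 promoters of 27025 genes, 3.33% held these letters. That share counts single promoters, whereas a gene above was counted if any of its starts matched, so the measures are unlike.

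B6.SLE123 was compared with control over 4633 genes with 50 or more UMIs in both libraries together. A log2 ratio of 1 or more was found for 51 genes (1.1%) and of -1 or less for 26 (0.561%). With TMM scaling these were 43 and 40. The median ratio over all genes was 0.05. For 56 genes all 6 hashtags of B6.SLE123 lay above all 6 of control (1.21%), and for 37 they lay below (0.799%). The same control library served the Ang II comparison, so both sets of ratios share its values. Apart from globin genes that came almost wholly from 1 barcode, Ifitm2 and Ifitm1 of the interferon-induced transmembrane family stood highest, and Khdc1a lowest.

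Ifitm2 (ENSMUSG00000060591, chromosome 7, 140954837 to 140955987) blocks the entry of viruses into cells. Its level ran from 857 through a median of 1071 to 1516 CPM over the hashtags of B6.SLE123, and from 0 through 0 to 15.6 CPM in control. The groups did not overlap. A UMI was found in 242 of 481 B6.SLE123 NK cells and in 3 control cells. The log2 ratio was 8.03 (6.67 to 9.91). It was 4.94 when S100a8 and Lyz2 were not used in the rule and 5.0 with no excluded gene, still far above 0. Ifitm1, its neighbour (ENSMUSG00000025491, chromosome 7, 140967221 to 140969825), ran from 36.6 through 86.0 to 141 CPM in B6.SLE123 and from 0 to 9.34 CPM in control, with a log2 ratio of 5.30 (3.38 to 8.38). Ifitm3, with too few UMIs to be tested, stood at 59.0 against 5.30 CPM, with 46.3% of its B6.SLE123 UMIs in 1 barcode. Ifitm10, elsewhere on the chromosome, did not separate the libraries (-0.13, -0.45 to 0.18). The difference was not particular to NK cells: in B cells the ratios of Ifitm2 and Ifitm1 were 9.96 and 8.66. Their B6.SLE123 levels were 3504 and 1338 CPM in B cells, against 1107 and 83.5 CPM in NK cells. What part of the NK cell values came from B cell RNA was not tested.

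Both promoters are given for the pair with the highest ratios in most hashtags. They were searched on both strands for GAAA and GAAA with any 2 bases between them (reverse complement TTTC and TTTC, spaced alike), the core of interferon-stimulated elements. They are RefSeq's for GRCm38.p6, as above, and capitals mark a match.
Ifitm2, chr7:140955962-140956211, minus strand: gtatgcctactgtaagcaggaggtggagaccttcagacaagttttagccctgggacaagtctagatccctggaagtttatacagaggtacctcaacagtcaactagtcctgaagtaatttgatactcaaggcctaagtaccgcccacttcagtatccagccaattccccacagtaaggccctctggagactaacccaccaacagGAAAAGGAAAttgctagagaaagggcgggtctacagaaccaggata
Ifitm1, chr7:140967826-140968075, plus strand: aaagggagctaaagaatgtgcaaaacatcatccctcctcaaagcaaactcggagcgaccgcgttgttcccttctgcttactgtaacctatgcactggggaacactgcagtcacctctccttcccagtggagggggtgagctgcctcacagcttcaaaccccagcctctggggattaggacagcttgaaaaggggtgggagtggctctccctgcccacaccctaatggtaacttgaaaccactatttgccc
Ifitm2 held a match 46 bases before its start and Ifitm1 none. The Ifitm1 window lies within the gene positions given above, which begin at 140967221, so the bases before that position were not searched. Of all promoters 2.98% held these letters. Other genes of the interferon response differed less. Of 20 genes fixed for this list 9 were tested, none past 2-fold, with a median log2 ratio of 0.43 against 0.05 over all genes. The intervals of 3 lay above 0: Herc6 at 0.95 (0.19 to 1.73), Bst2, the virus-tethering protein tetherin, at 0.72 (0.10 to 1.35), and Rnf213 at 0.73 (0.06 to 1.41). Their hashtags overlapped, and at 1000 to 2500 UMIs only the interval of Herc6 of these 3 lay above 0. Over all genes 9.32% had an interval above 0 and 6.15% one below.

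Khdc1a (ENSMUSG00000067750, chromosome 1, 21349641 to 21352200) had no UMI in any B6.SLE123 NK cell. The control hashtags C0301 to C0306 stood at 132, 88.7, 145, 38.5, 42.1 and 43.1 CPM, from 71 UMIs, and those of Ang II from 94.7 to 200 CPM. At a floor of 3 UMIs for the library it was at least 17.4-fold lower in B6.SLE123. On the same chromosome, Sh2d1b1 (EAT-2, the adaptor that couples SLAM family receptors to activation) ran from 73.3 through 83.2 to 98.9 CPM in B6.SLE123 and from 9.62 through 30.0 to 55.4 CPM in control. The groups did not overlap, and the log2 ratio was 1.32 (0.68 to 1.99). In B cells it was 1.82. The SLAM receptors themselves, encoded on chromosome 1, were close to control: of 5 tested none had an interval apart from 0. Cd244a (2B4) stood at 0.30 (-0.06 to 0.66), Ly9 at -0.23 (-0.64 to 0.17) and Slamf7 (CRACC) at 0.26 (-0.05 to 0.57). Fcgr2b, the inhibitory Fc receptor within this region in lupus strains, stood at 14.4 against 43.4 CPM (-1.59, -2.76 to -0.57), with hashtags from 0 to 21.98 against 14.0 to 67.7 CPM.

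**Figure D4:**
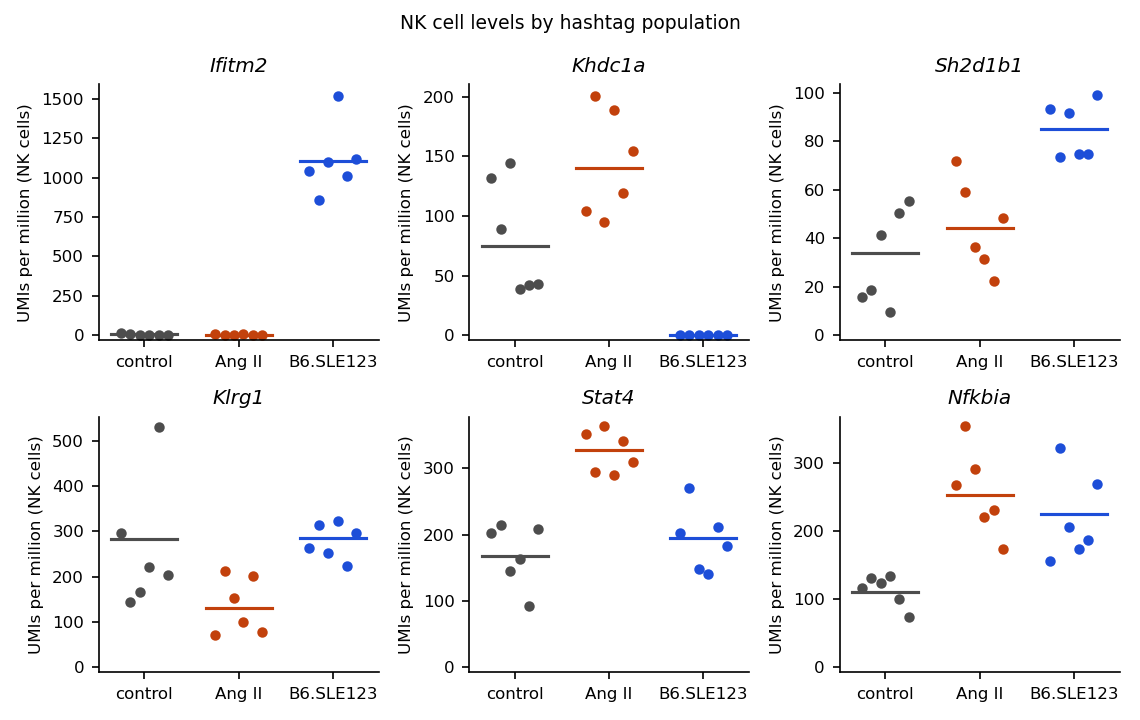
CPM in NK cells (vertical axes, on a scale of their own for each gene) of 6 genes in the 3 libraries (horizontal axes). Dots are the 6 hashtags and lines the library value; Ifitm2 and Sh2d1b1 lie higher and Khdc1a lower in B6.SLE123 than in every control hashtag, and Nfkbia higher in both other libraries than in every control hashtag.

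By chromosome, 19 of 858 genes tested on chromosomes 1, 4 and 7 passed 2-fold in B6.SLE123 (2.21%), against 58 of 3761 on all others (1.54%). Singly, chromosomes 1, 4 and 7 stood at 2.57%, 1.88% and 2.19%. The others ran from 0% (chromosomes 16, 19 and X) to 3.53% (chromosome 12) and 5% (chromosome 13). Chromosome 7 includes Hbb-bs and Hbb-bt, which came almost wholly from 1 barcode. In Ang II the shares were 12 of 897 (1.34%) and 63 of 3928 (1.60%). No boundaries of the lupus intervals were used.

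Single genes with hashtags apart from control included Jak3 and Nfkbia. Jak3, the kinase of the common gamma chain, ran from 49.9 to 115 CPM (median 66.6) against 20.7 to 38.5 CPM (median 30.9), with no overlap and a log2 ratio of 1.33 (0.64 to 2.05). It was higher in B cells too, at 0.76 (0.62 to 0.90). Nfkbia, the inhibitor of NF-kappaB, ran from 155 to 322 CPM (median 197) against 73.9 to 135 CPM (median 120), again with no overlap, at 1.01 (0.65 to 1.38). In B cells its ratio was 0.14. The heat shock list was chosen after values were seen, so its counts are a description only. It had intervals above 0 for 10 of 10 genes tested, against 9.32% of all genes, with 3 past 2-fold and a median of 0.74. Hspa8, the constitutive HSC70 chaperone, ran from 1809 through 2221 to 2593 CPM against 946 through 1155 to 1808 CPM. The ranges did not overlap but nearly met, and the log2 ratio was 0.96 (0.84 to 1.07). Its B cell ratio was 0.78. The other named chaperones were Hspa1b at 1.23, Hsph1 at 1.10 and Dnajb1 at 1.0, with B cell ratios of 0.54, 0.87 and 0.43, so these 4 genes were higher in B cells too. The hashtags of Hspa1b, Hsph1 and Dnajb1 overlapped those of control. Of 12 immediate early genes tested, 9 had intervals above 0, with a median of 0.50. Junb stood at 0.52 and Ier2 at 0.55, both with hashtags apart from control.

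Receptors of B6.SLE123 NK cells differed little. Of 10 activating receptors tested 2 had intervals above 0 and 3 below, against 9.32% and 6.15% of all genes, and none passed 2-fold. Klrk1 (NKG2D) ran from 687 through 868 to 998 CPM against 601 through 704 to 855 CPM, at 0.33 (0.17 to 0.50). Klra8 (Ly49H), the receptor for a cytomegalovirus protein, ran from 469 through 695 to 824 CPM against 694 through 920 to 1353 CPM, at -0.53 (-0.69 to -0.36), and Klra4 (Ly49D) stood at -0.43 (-0.63 to -0.23). Klra genes are near copies of each other, so the split of their reads is uncertain. Of 12 inhibitory receptors 2 were above and 2 below. Klrc1 (NKG2A) stood at 0.39 (0.15 to 0.64) and Klra3 (Ly49C) at -0.36 (-0.70 to -0.02). The hashtags of these genes overlapped. At 1000 to 2500 UMIs the interval of Klrc1 reached below 0 (0.25, -0.04 to 0.55). With no excluded gene in the rule, Klrk1 and Klrc1 stood at -0.28 and -0.13, while the median of all genes moved by -0.26.

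Of 17 adaptors and signalling genes tested, 1 passed 2-fold, Sh2d1b1. Fcer1g, the Fc receptor gamma chain, was the adaptor with hashtags apart and lower, from 2245 through 3068 to 3405 CPM against 3835 through 4069 to 4300 CPM, at -0.45 (-0.53 to -0.37). Of 15 cytokine receptor genes 3 were above 0 and 4 below, where 9.32% of all genes were above and 6.15% below. Il18r1, a chain of the interleukin-18 receptor, stood at -0.58 (-0.92 to -0.24) and its partner Il18rap at -0.27 (-0.51 to -0.03), or -0.14 at 1000 to 2500 UMIs (-0.42 to 0.14). Il2rb, the receptor chain for interleukin-15 on which NK cells depend, stood at -0.25 (-0.41 to -0.08), and Ifnar2, of the type I interferon receptor, at 0.47 (0.04 to 0.90), or 0.39 with TMM scaling (-0.04 to 0.82). Effector genes leaned higher, with 5 of 12 intervals above 0 and 1 below, and none had hashtags apart. Ctsc, which activates granzymes, stood at 0.58 (0.24 to 0.92) and the granzyme B inhibitor Serpinb9 at 0.39 (0.12 to 0.66). With no excluded gene in the rule they stood at 0.17 and -0.25. Gzmb itself stood at -0.01 (-0.20 to 0.18). The chemokine Ccl3 stood at 118 against 71.0 CPM (0.73, 0.25 to 1.22) and Ifng at 38.9 against 58.3 CPM, with an interval from -1.31 to 0.10.

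Trafficking genes leaned lower, with 7 of 17 intervals below 0 and 1 above, against 6.15% and 9.32% of all genes. Their median was -0.24, and 1 of the 17 had hashtags apart. Cd44, the hyaluronan receptor, ran from 34.4 to 63.6 CPM against 77.8 to 125 CPM with no overlap, at -0.82 (-1.43 to -0.24). Itga2 (DX5) stood at -0.51 (-0.84 to -0.18), Itgb1 at -0.26 (-0.45 to -0.07) and Cd69, which holds lymphocytes in tissue, at -0.71 (-1.27 to -0.16). S1pr5 was the one above 0, at 0.37 (0.12 to 0.63). It stood at 0.17 (-0.13 to 0.47) at 1000 to 2500 UMIs and at -0.13 with no excluded gene. At 1000 to 2500 UMIs Cd44 stood at -0.495 (-1.23 to 0.215) and Cd69 at -0.49 (-1.18 to 0.17), so neither kept an interval below 0. Of the early maturation list 2 of 12 genes were above 0 and 4 below, among them Cd27 at -1.24 (-2.18 to -0.38) and Ctla2a at -0.58 (-0.87 to -0.30). The late list had 3 of 14 above and 3 below, with Tbx21 (T-bet) at 0.38 (0.09 to 0.67). At 1000 to 2500 UMIs per cell, with 325 B6.SLE123 and 371 control cells, the early list had 4 above and 2 below and the late list 0 above and 3 below. There Xcl1 stood at 0.54 (0.15 to 0.94), Cd160 at 0.83 (0.19 to 1.48) and Cd7 at 0.55 (0.32 to 0.78). Ctla2a stood at -0.33 (-0.69 to 0.02) and Tbx21 at 0.27 (-0.07 to 0.60). Cd27 stayed below 0, at -1.15 (-2.36 to -0.07). With no excluded gene in the rule Tbx21 stood at -0.18.

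The remaining genes with the ratios farthest from 0 divided into several kinds. Ftl1-ps1, a copy of the ferritin light chain gene, stood at 338 against 23.3 CPM (3.86) and Ftl1 at 482 against 824 CPM (-0.77). Their sum was 820 against 848 CPM, so how reads were split between them is uncertain. Wdr89 stood at 76.3 against 18.02 CPM (2.08), and at 2.36 in B cells. The neutrophil gene S100a9 stood at 89.2 against 18.02 CPM (2.31), with a UMI in 10.6% and 3.42% of NK cells and in 10.5% and 3.99% of B cells. The globin genes Hbb-bs, Hbb-bt and Hba-a1 had 98.6%, 99.3% and 99.2% of their UMIs in 1 barcode. The class II genes H2-Ab1 (2.10) and Cd74 (1.40) had 58.5% and 45.9% in 1 barcode, and stood at 0.79 and 0.60 without its hashtag. Among the lower genes, Gadd45g, a stress-induced gene, stood at 15.8 against 53.0 CPM (-1.74, -2.83 to -0.78), the sulfatase Sulf2 at 51.8 against 122 CPM (-1.23) and Ktn1, a membrane anchor for kinesin, at 23.0 against 64.6 CPM (-1.49). The histone gene Hist1h2ap, at -1.21, stood at 0.02 without control hashtag C0305. The ribosomal genes Rpl35a, Rpl38 and Rps28 stood at -0.89, -0.73 and -0.73 with hashtags apart, and at -0.86, -0.80 and -0.74 in B cells.

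Ang II was compared with control over 4840 genes. Here 51 were higher by 2-fold or more (1.05%) and 24 lower (0.496%), and 34 and 31 with TMM scaling. The median ratio was 0.07. All 6 hashtags lay above control for 55 genes (1.14%) and below for 46 (0.95%). Over all genes 10.95% had an interval above 0 and 7.46% one below. Past 2-fold were, among others, the heat shock gene Hspa1b and the receptor gene Klrc3 on the higher side and Klrg1 and Cx3cr1 on the lower.

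Stat4, the transcription factor that carries the interleukin-12 signal, ran from 290 through 326 to 364 CPM in Ang II and from 92.5 through 183 to 215 CPM in control. The groups did not overlap. Its log2 ratio was 0.96 (0.67 to 1.25), 0.89 in cells of 1000 to 2500 UMIs, and 0.84 in B cells. Il2rg, the common gamma chain, ran from 743 through 839 to 1140 CPM against 452 through 572 to 673 CPM, with no overlap, at 0.57 (0.41 to 0.73). Of 16 cytokine receptor genes tested 5 were above 0 and 1 below, against 10.95% and 7.46% of all genes. Il12rb2, a chain of the interleukin-12 receptor, was among them at 0.52 (0.17 to 0.87). Jak3 stood at 0.61 (-0.15 to 1.38), with overlap. Tgfb1, a cytokine that restrains NK cells, ran from 149 through 253 to 321 CPM against 85.5 through 114 to 145 CPM, with no overlap, at 1.04 (0.70 to 1.39) and 0.57 in B cells.

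Activating receptors leaned higher in Ang II, with 7 of 11 intervals above 0 and none below, against 10.95% and 7.46% of all genes. Their median was 0.35, and 1 of the 11 had hashtags apart. Ang II NK cells were deeper than those of control, and what part depth had in the count of intervals was not tested. Klrc3 (NKG2E) ran from 52.1 through 78.7 to 126 CPM against 28.0 through 30.3 to 49.3 CPM, with no overlap, at 1.24 (0.61 to 1.91). Its relative Klrc2 (NKG2C) ran from 416 through 455 to 521 CPM against 250 through 320 to 420 CPM, at 0.55 (0.32 to 0.77), and Klrk1 stood at 0.49 (0.33 to 0.64). Klra8 stood at 0.21 (0.07 to 0.35) and Klra4 at 0.35 (0.18 to 0.51). Inhibitory receptors went both ways, with 3 of 12 above 0 and 4 below. Klra3 stood at 0.52 (0.24 to 0.80), Klrc1 at 0.38 (0.13 to 0.62), Klra1 (Ly49A) at -0.71 (-1.14 to -0.29) and Klra7 (Ly49G) at -0.29 (-0.48 to -0.10). The adaptor Tyrobp (DAP12) was lower with hashtags apart, from 3985 through 4274 to 4661 CPM against 4830 through 5437 to 5847 CPM, at -0.28 (-0.34 to -0.22), and Hcst (DAP10), the adaptor of NKG2D, stood at -0.39 (-0.54 to -0.25).

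Of 18 transcription factors 7 were above 0 and 3 below, against 10.95% and 7.46% of all genes. Runx3 ran from 200 through 228 to 271 CPM against 132 through 146 to 196 CPM with no overlap, at 0.58 (0.25 to 0.90). Id2, which NK development needs, ran from 435 through 558 to 648 CPM against 673 through 750 to 886 CPM with no overlap, at -0.52 (-0.70 to -0.35). Tbx21 stood at -0.02 (-0.32 to 0.28). Among effectors, Nkg7 ran from 3540 through 3931 to 4282 CPM against 4867 through 5519 to 5742 CPM with no overlap, at -0.46 (-0.53 to -0.40). Gzmb stood at -0.22 (-0.41 to -0.03), at 0.18 in cells of 1000 to 2500 UMIs and at 0.09 without control hashtag C0305.

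Nfkbia ran from 174 through 249 to 354 CPM against 73.9 through 120 to 135 CPM, with no overlap, at 1.18 (0.83 to 1.54). Its B cell ratio was 0.19. Junb ran from 358 through 397 to 514 CPM against 210 through 228 to 246 CPM, with no overlap, at 0.87 (0.61 to 1.12). Fos stood at 1.15 (0.79 to 1.52), with overlap. Of 13 immediate early genes 10 were above 0 and 2 past 2-fold, with a median of 0.47. Of 11 heat shock genes, a list chosen after values were seen, 7 were above 0, against 10.95% of all genes. Past 2-fold were 3 of them: Hspa1b at 1.98, Hspa1a at 1.95 and Dnajb1 at 1.11. Their B cell ratios were 1.84, 1.97 and 0.93. None of the 11 had hashtags apart from control. Hspa1b ran from 37.2 through 63.7 to 280 CPM against 0 through 17.5 to 70.0 CPM, and stood at 1.27 without Ang II hashtag C0301. The interferon list had no interval apart from 0 among 9 tested.

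The maturation genes were also examined in a common window of depth, because Ang II NK cells were deeper: 44.1% held over 2500 UMIs against 17.3% in control. The window leaves out the deepest cells and does not match depth within it. Cells with Cd27 only, an early gene, had medians of 3528.5 UMIs in Ang II and 2362 in control. Cells with Itgam only had medians of 2335 and 1753. The window can thus leave out early cells, and what part this had in the values below was not tested. Over all NK cells 12 of 14 early genes had an interval above 0, against 10.95% of all genes, with a median of 0.65. Kit, the stem cell factor receptor, stood at 59.6 against 20.1 CPM (1.57, 0.77 to 2.42), Tcf7 at 1.15 (0.65 to 1.66), Il7r at 1.14 (0.31 to 2.00) and Xcl1 at 0.58 (0.30 to 0.85). In the 150 Ang II and 371 control cells with 1000 to 2500 UMIs none of the 14 intervals lay apart from 0, 7 values were above 0 and 7 below, and the median was 0.01. There Xcl1 stood at -0.12 (-0.65 to 0.39) and Ltb, 0.98 over all cells, at -0.40 (-1.33 to 0.46). With the gene limits read as UMIs, none of the 14 lay apart from 0 either.

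The late list gave 3 of 14 above 0 and 8 below over all NK cells, against 10.95% and 7.46% of all genes. At 1000 to 2500 UMIs it gave 2 above and 3 below. Klrg1 (ENSMUSG00000030114, chromosome 6, 122270596 to 122282882) ran from 71.6 through 127 to 212 CPM in Ang II and from 145 through 212 to 530 CPM in control, with overlap. Its log2 ratio was -1.11 (-1.46 to -0.78), -1.25 at 1000 to 2500 UMIs (-1.78 to -0.76) and -0.61 without control hashtag C0305. Cx3cr1, the fractalkine receptor of circulating NK cells (chromosome 9, 119901616 to 120069879), ran from 6.31 through 13.8 to 44.6 CPM against 18.7 through 49.2 to 206 CPM. It stood at -2.05 (-2.96 to -1.24), -1.36 at 1000 to 2500 UMIs and -0.98 without C0305. Ccl5 stood at -0.47 (-0.50 to -0.44), and at -0.39 at 1000 to 2500 UMIs. The other direction was taken, among others, by S1pr5, at 0.39 (0.15 to 0.64), and Klf2, the factor that drives S1P receptor expression, at 0.15 (0.03 to 0.28). At 1000 to 2500 UMIs they stood at 0.59 and 0.31. Late genes thus differed in both directions.

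**Figure D5:**
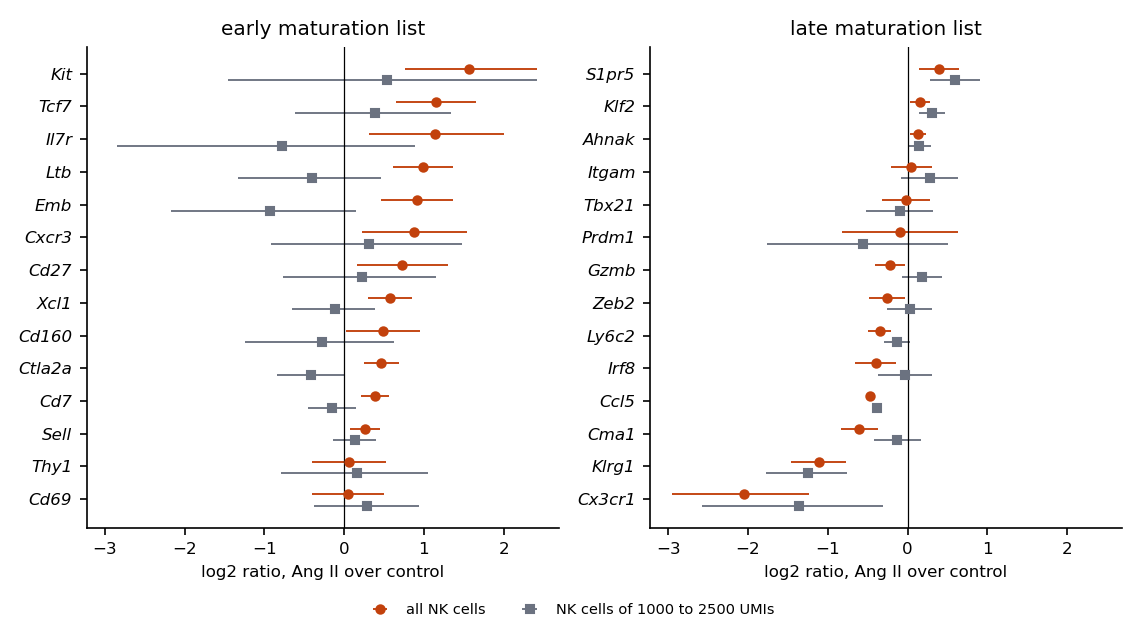
Log2 ratio of Ang II over control (horizontal axes) for the 14 early and 14 late maturation genes (vertical axes), over all NK cells (circles) and over NK cells of 1000 to 2500 UMIs (squares), with exact 95% intervals. Intervals of 12 early genes lie above 0 over all NK cells and none do at 1000 to 2500 UMIs, while Klrg1 and Cx3cr1 lie below 0 in both.

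The other genes farthest from 0 in Ang II were of several kinds. S100a9 stood at 90.7 against 18.02 CPM (2.33), with a UMI in 20.1% and 3.42% of NK cells and in 21.3% and 3.99% of B cells. Zcchc9 stood at 1.81 (0.93 to 2.76) and Hypk at 1.28 (0.80 to 1.77), both with hashtags apart, and at 0.84 and 0.98 in B cells. Lars2, the mitochondrial leucyl-tRNA synthetase, stood at 1.11, at 0.52 in cells of 1000 to 2500 UMIs and at 0.83 in B cells. Among the lower genes were the proliferation genes Hist1h1b (-5.27), Top2a (-3.23) and Hist1h2ae (-1.10), of which single control barcodes held 67.0%, 41.3% and 59.8% of the UMIs. Without control hashtag C0305 they stood at -1.71, -0.45 and 0.70. The mitochondrial ribosomal gene Mrps18c ran from 7.29 to 58.6 CPM against 67.3 to 144 CPM with no overlap, at -1.17 (-1.85 to -0.53). Ide, the insulin-degrading enzyme, stood at -1.30 and Dcxr, a carbonyl reductase, at -1.14, both with overlap. AW112010 stood at 5467 against 8062 CPM (-0.56) with hashtags apart, and S100a6 at -0.59 (-0.71 to -0.46) with overlap.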

How the data were processed

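Splenocytes of 3 libraries were measured with 10x Genomics 5′ chemistry. Files deposited by the authors held UMI counts from Cell Ranger 6.0.0, for genes and for hashtags, with no scaling. The genome was mm10 per the submitters' processing notes. The libraries held 18218, 16062 and 20691 barcodes and 44146350, 59043555 and 63516694 gene UMIs in the order control, Ang II and B6.SLE123. The study's limits of 201 to 3499 were read as genes, mitochondrial RNA had to be under 15%, and the top hashtag at least 3 times the second. The last step stood in for doublet removal, no doublet caller was run, and doublets within 1 hashtag could not be seen. This left 15957, 13982 and 17514 barcodes. B cells were barcodes with 3 or more UMIs summed over B cell marker genes, fewer than 3 NK marker UMIs and none of the T cell and myeloid genes of the NK rule.

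The members and gene lists were chosen with earlier results of these data known. NK UMIs were summed per library and given as CPM. Log2 ratios carry exact conditional 95% intervals and shares Clopper-Pearson intervals, for counting error only. Genes with at least 50 UMIs over both libraries were compared. Named genes were the 10 highest and 10 lowest per comparison, ranked by the interval bound nearest to 0, without immunoglobulin and T cell receptor genes, Xist, Tsix, Y-linked genes, the 12 rule genes and models named only Gm or Rik, and the members of the lists. The heat shock list was chosen after values were seen. Cells were thinned with a fixed seed. Positions are those of GENCODE vM21, matched for 32235 of 32285 genes. Promoters are from RefSeq. Python 3.11.15, NumPy 2.4.6, SciPy 1.17.1, pandas 2.3.3 and edgeR 4.0.16 (TMM factors) were used, and the ratio step was tested on simulated counts. Alternatives were other barcode limits, marker limits, count minimums, scalings and depths, and leaving out each hashtag.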

Additional observations from a re-analysis of the deposited data

How the results depend on the processing

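With 1 library per group, every comparison rests on counting error and on the spread over hashtags, whose conditions are not named. At a median of 1314 to 2421.5 UMIs per NK cell, Cd27, Klrg1 and Itgam have few UMIs and a cell without one is not a cell without the gene. No paired analysis was possible because each group has 1 library. The cause of the following moves was not tested.

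With no limit on the 6 genes of other cell types, the log2 ratio of NK shares was 0.0633 in B6.SLE123 and -0.32 in Ang II, genes past 2-fold in B6.SLE123 were 232 higher and 162 lower, and those lower in Ang II were 55. Leaving only S100a8 and Lyz2 out of the rule, an alternative chosen after seeing the data, gave -0.345 for the Ang II share. TMM scaling gave 40 lower genes in B6.SLE123. With at least 1 UMI there were 1778 higher and 1265 lower genes in B6.SLE123 and 1643 and 1274 in Ang II. With at least 200 UMIs there were 10 and 0, and 5 and 1. Reading the limits as UMIs gave 12 lower genes in Ang II. In cells of 1000 to 2500 UMIs, chosen after seeing the data, Ang II had 24 higher and 15 lower genes. The Cd27 share ratio of Ang II changed sign there, at -0.694 against 0.591 in the main setting. Unthinned, the Klrg1 share ratio in Ang II was -0.48.

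Leaving out 1 hashtag at a time, the share ratio ran from -0.25 to -0.0115 in B6.SLE123 and from -0.672 to -0.529 in Ang II. Higher genes ran from 41 to 55 and lower genes from 17 (without control C0305) to 32 in B6.SLE123, and from 41 to 66 and 16 (without control C0305) to 30 in Ang II. The Itgam ratio ran from -0.181 to 0.171 and from -0.232 to 0.352, the Klrg1 ratio from -0.338 to 0.403 and from -1.41 to -0.668, and the Cd27 ratio from -1.85 to -0.468 and from 0.212 to 1.28.

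For 152 log2 ratios of single genes, counted per comparison, 28 settings gave 3343 values. Of these, 3155 stayed within the counting interval of the reported ratio, 34 changed sign where that interval lay apart from 0, and the other 154 moved outside it. Sign changes of ratios whose interval held 0 are not among the 34. In B6.SLE123 with no limit on the 6 genes the sign changes were Cd160 (-0.101), Cd7 (-0.352), Klf2 (-0.26), Klrc1 (-0.125), Klrk1 (-0.284), S1pr5 (-0.131), Serpinb9 (-0.252) and Tbx21 (-0.182). Ccl5 stood at 0.0142 with UMI limits, 0.0258 at 1000 to 2500 UMIs and 0.126 without control C0305 (-0.132 at the lowest without 1 hashtag), Thy1 at 0.136 at 1000 to 2500 UMIs, Hbb-bt at -0.868 without B6.SLE123 C0304 (up to 6.25 without another hashtag) and Hist1h2ap at 0.0225 without control C0305 (down to -1.74 without another). In Ang II with UMI limits they were Cd160 (-0.253), Cd7 (-0.151), Ctla2a (-0.0502), Gzmb (0.194), Hist1h2ae (0.952), Il7r (-0.621) and Ltb (-0.0181). At 1000 to 2500 UMIs they were Cd160 (-0.277), Cd7 (-0.149), Ctla2a (-0.411), Emb (-0.934), Gzmb (0.182), Hist1h2ae (1.03), Il7r (-0.782), Ltb (-0.4), Top2a (2.03), Xcl1 (-0.12) and Zeb2 (0.0303). Without control C0305 Gzmb stood at 0.0867 and Hist1h2ae at 0.697, and without another hashtag at -0.363 and -1.37 at the lowest.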
